A study of Mus musculus with 4 samples.

Results

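*Chl1* encodes the cell adhesion molecule close homolog of L1. The gene was followed through 4 single-cell libraries made from the popliteal lymphatic vessels (PLVs) and the superficial saphenous vein (SSV) of mouse hindlimbs. It was 1 of the 30406 genes that all 4 libraries listed. It was chosen because of its high level in the stromal cells of the TNF-Tg library and because of the genes whose counts varied with it there, so those values are given as a description, without a test. Stromal cells were the cells with at least 20 unique molecular identifiers (UMIs) of *Dcn*, the collagen-binding proteoglycan decorin, per 10000 UMIs of the cell and with no UMI of *Ptprc*, which encodes the pan-leukocyte antigen CD45. There were 4427 such cells among 10837.

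Replicates tdT1 and tdT2 held sorted tdTomato-positive (tdT+) cells of Cspg4-Cre;tdT mice, in which the reporter marks cells that express or once expressed *Cspg4*, and they came from mice of both sexes. The WT library and the TNF-Tg library came from male mice, with cells sorted by light scatter without a reporter. These mice were aged 9 months by the labels, and the study's methods give a range that ends at 9 months. For the tdT mice the methods give only a minimum age, the lower end of that range. The mice were C57BL6 by the labels and C57BL/6J by the study's methods. TNF-Tg mice carry a human *TNF* transgene and develop chronic inflammatory-erosive arthritis. Each library pooled vessels of 3 mice that cannot be told apart, and there was 1 library of WT and 1 of TNF-Tg, so library and genotype cannot be told apart and no p-value was computed between them. Since the assay counts transcript ends, levels of different genes do not depend on transcript length. Intervals in brackets are 95% intervals of counting error only. The human transgene was not among the listed genes, so the TNF-Tg label could not be checked by it.

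The libraries held 454 to 5488 cells and 2357031 to 68773605 UMIs. Stromal cells had a median of 14506 UMIs in WT and 11561 in TNF-Tg, and of 12897.5 and 5479 in tdT1 and tdT2. Any pair of libraries shared 0 to 5 cell barcodes. Immediate-early and heat shock genes, which rise when tissue is dissociated, summed to 20360 CPM (counts of the gene per 1e+06 UMIs of the same cells) in tdT1 stromal cells and to 3633 to 6676 CPM in the other 3 libraries, so tdT1 stood apart there.

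CHL1 belongs to the L1 family of transmembrane adhesion molecules, together with L1CAM, NrCAM and neurofascin. These proteins carry immunoglobulin-like and fibronectin type III domains outside the cell, and a short tail inside that binds ankyrin and proteins of the ezrin group. CHL1 is best known from the nervous system, where it takes part in neurite growth and in the migration of neurons. It acts in complex with integrins and with neuropilin-1, the receptor of semaphorin 3A, and proteases including BACE1 and ADAM8 release its outer part.

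In GRCm38, *Chl1* (ENSMUSG00000030077) lies on the forward strand at chr6:103510586-103750211 and has 6 transcripts, of which 5 are coding. The longest coding transcript has 27 exons. The libraries count RNA from its 3' end, and the last exon of that transcript spans 614 bases at chr6:103749598-103750211. The annotation places 6 other small features inside the gene, and 0 of them were listed in the matrices. The promoter window used here, 250 bases before to 50 bases after the RefSeq start, lay at chr6:103510626-103510925, inside the first exon of that longest transcript. Its last 30 bases before the RefSeq start (chr6:103510846-103510875) are shown, 5' to 3' and all in lower case because the window held 0 matches to the 6 motifs searched:
Chl1: agatcccggggacagcagaaaagaggcgcg

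The motifs, searched on both strands, were the NF-kB consensus, STAT (TTCNNNGAA), AP-1 (TGANTCA), the metal response element core (TGCACNC or TGCGCNC), C/EBP (TTGCNNAA) and the GC box (GGGCGG). Of 32851 RefSeq promoter windows of the same length, 2.92% held the NF-kB motif, 8.30% STAT, 7.81% AP-1, 25.7% the metal response element core, 10.8% C/EBP and 35.7% the GC box. Sequences for 2 of the genes whose counts varied most with *Chl1* over cells (described further on) are shown beside it as examples of windows with matches. Of 10 windows of 9 such genes 8 held a match, and that of *Mcoln2* and 1 of the start sites of *Il33* held none, as that of *Chl1* did. The share of all windows with a match to any of the 6 motifs was not computed. The count of 8 therefore has no background and is not a result about these genes. The *Mcoln2* window, like that of *Chl1*, had 0 bases before the first exon. Both sequences printed below are the 250 bases before the RefSeq start of GRCm38.p6, and capitals mark motif matches. *Mt2*, a metallothionein, lies on the forward strand (chr8:94172368-94172617) and its window held 4 metal response element cores, 1 AP-1 and 1 C/EBP match, 1 of the cores after the start:
Mt2: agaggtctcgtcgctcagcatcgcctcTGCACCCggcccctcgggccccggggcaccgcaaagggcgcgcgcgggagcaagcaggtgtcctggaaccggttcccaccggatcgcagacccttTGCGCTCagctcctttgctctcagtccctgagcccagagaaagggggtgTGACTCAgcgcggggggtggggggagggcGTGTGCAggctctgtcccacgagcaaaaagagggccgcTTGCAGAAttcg

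*Sdc4*, the heparan sulfate proteoglycan syndecan-4, lies on the reverse strand (chr2:164443189-164443438), and its window held 1 NF-kB match directly before a GC box, 1 metal response element core and 4 GC boxes in all, with no overlap:
Sdc4: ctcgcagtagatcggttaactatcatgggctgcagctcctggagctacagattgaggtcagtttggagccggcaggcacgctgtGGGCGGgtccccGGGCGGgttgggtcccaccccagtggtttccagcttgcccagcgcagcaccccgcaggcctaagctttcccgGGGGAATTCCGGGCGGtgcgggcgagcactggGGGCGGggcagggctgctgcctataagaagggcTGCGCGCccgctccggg
A match is only an occurrence of these letters, and no binding was measured.

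In TNF-Tg and WT *Chl1* stood higher in stromal cells than in leukocytes, and it was abundant in the TNF-Tg library alone among the 4. Summed over stromal cells it stood at 1.09 CPM [0.562 to 1.90] in tdT1, from 12 UMIs in 9 of 926 cells. It stood at 2.24 CPM [0.463 to 6.56] in tdT2, from 3 UMIs in 3 of 241 cells, and at 1.74 CPM [1.30 to 2.27] in WT, from 53 UMIs in 33 of 2163 cells. The intervals of these 3 libraries overlapped. In TNF-Tg it stood at 158 CPM [152 to 165], from 2132 UMIs in 326 of 1097 cells, far outside the range of the controls. The TNF-Tg level was 91.1-fold that of WT [69.4 to 122], or 6.51 on the log2 scale [6.12 to 6.93]. It was 70.5-fold the highest control, which was tdT2, and 95-fold the mean of the tdT libraries (1.67 ± 0.818 CPM, SD, n = 2), a log2 ratio of 6.57 that was 7.19 against tdT1 alone and 6.14 against tdT2 alone. The tdT libraries differed from WT by −0.68 [−1.72 to 0.25] and 0.37 [−1.95 to 2.00] on the log2 scale, both intervals spanning 0. In sums over cells of this kind, more cells with the transcript and more transcript per cell are not separated, and they are taken up further on.

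Both kinds of stromal cell carried *Chl1* in TNF-Tg. Stromal cells were split by a score, the mean log2 level of *Myoc*, *Pi16* and *Fndc1* minus that of *Cxcl14*, *Mgp* and *Gdf10*, into LMC-type and VSMC-type cells after the marker genes of the study's lymphatic and vascular muscle cell clusters. The names are those of the study's clusters. The study called them muscle on *Cald1*, *Tpm1* and *Pdgfrb* RNA, on muscle-related transcription factors and on the sort of Cspg4-Cre;tdT cells. It also showed a *Pdgfrb* reporter that overlapped αSMA protein in the vessel wall. It found *Acta2* and *Myh11* RNA limited, and *Acta2* reporter mice had little signal in these vessels too, despite αSMA protein. From this it proposed low *Acta2* RNA there. It added that low read depth may limit detection, and it could not fully exclude myofibroblasts. In the cells gated here, canonical contractile genes were low in RNA too. In TNF-Tg stromal cells the smooth muscle genes *Acta2* and *Myh11* stood at 1.71 and 0 CPM and *Cnn1* was at 0. *Des* stood at 17.6 CPM, against 26.7 CPM in WT, and the pericyte gene *Kcnj8* at 27.0 CPM. Beside them stood 13019 CPM of *Dcn* and 469 CPM of *Pdgfra*, the fibroblast receptor for PDGF. The 8 contractile and pericyte genes together stood at 47.9 CPM in TNF-Tg and 54.1 CPM in WT.

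In LMC-type cells *Chl1* stood at 211 CPM [201 to 222] in TNF-Tg, against 1.47 in WT and 1.32 and 4.43 in tdT1 and tdT2. In TNF-Tg 185 of 545 cells held a UMI, and the level was 143-fold above WT [103 to 207]. In VSMC-type cells it was at 0 UMIs in both tdT libraries, at 2.83 CPM in WT from 14 UMIs, 7 of them in 1 cell, and at 99.6 CPM [90.8 to 109] in TNF-Tg, where 114 of 441 cells held a UMI. Here TNF-Tg was 35.1-fold above WT [20.7 to 64.8]. The cells that the score left between the classes stood at 64.2 CPM in TNF-Tg and 2.23 CPM in WT. In each class the TNF-Tg value lay above all 3 control values. Within TNF-Tg the LMC-type level was 2.12-fold the VSMC-type level, 1.08 on the log2 scale [0.94 to 1.24], and in WT the same difference was −0.94 [−1.88 to 0.06]. The class markers differed between the libraries too, with *Myoc* −1.76 and *Cxcl14* 2.09 on the log2 scale in TNF-Tg over WT stromal cells, so the classes need not hold the same cells in both, and the part of this in the class values was not tested.

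**Figure D1:**
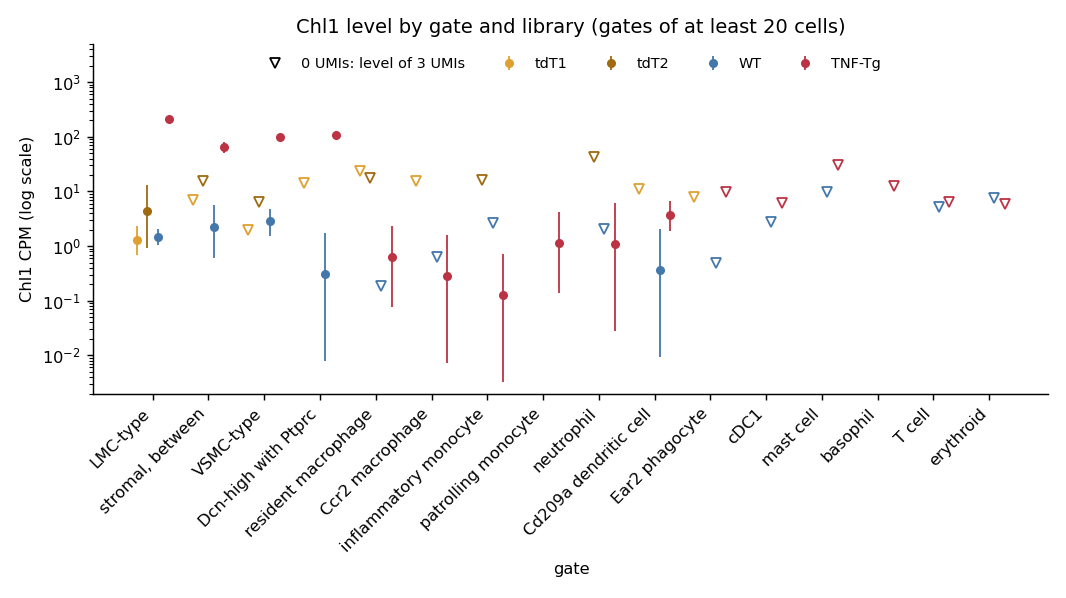
*Chl1* level, in CPM on a log axis, in each gate of at least 20 cells and each library, with points for summed counts, bars for 95% Poisson intervals and open triangles for gates at 0 UMIs, drawn at the level of 3 UMIs. The stromal gates of TNF-Tg stand at 64.2 to 211 CPM, and the points of the other 3 libraries in these gates at 4.43 CPM or lower.

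Outside the stromal gate *Chl1* was rare. Of all *Chl1* UMIs of a library, the stromal gate held 92.8% in TNF-Tg, 96.4% in WT, and 66.7% and 100% in tdT1 and tdT2. *Dcn*-high cells with a *Ptprc* UMI, which the gate leaves out and which could hold both a stromal cell and a leukocyte, stood at 109 CPM in TNF-Tg (144 UMIs in 18 of 66 cells) and at 0.308 CPM in WT (1 UMI in 170 cells), so their contrast ran in the same direction. In tdT1 the remaining 6 UMIs lay in 303 cells that matched no marker list. These cells stood at 7.96 CPM [2.92 to 17.3], above the stromal level of that library, 1.09 CPM [0.562 to 1.90]. In TNF-Tg the cells that matched no list stood at 12.3 CPM, from 4 UMIs in 102 cells. Over all leukocyte gates TNF-Tg held 18 UMIs in 16 of 2069 cells, 0.823 CPM [0.488 to 1.30], and WT 1 UMI in 2985 cells, 0.0290 CPM. The stromal level in TNF-Tg was 192-fold the leukocyte level [121 to 325]. The leukocyte level was 0.520% of the stromal one, and for other stromal transcripts that percentage was 0.197 for *Dcn*, 0.269 for *Col1a1*, 0.262 for *Col3a1*, 0.95 for *Mgp* and 1.64 for *Gsn*. *Chl1* thus lay above *Dcn* and the collagen genes and below *Mgp* and *Gsn*. In WT the *Chl1* percentage was 1.67, from 1 leukocyte UMI, above those of the 5 other genes. The part of free RNA in the leukocyte values was not tested. The share of leukocytes with a *Chl1* UMI was 0.773% at a median of 10381 UMIs, against 29.7% of stromal cells at 11561 UMIs.

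Within the TNF-Tg leukocytes the *Chl1* UMIs were uneven. Conventional dendritic cells that carry the lectin gene *Cd209a* held 11 of the 18 UMIs, in 9 of 219 cells, or 3.72 CPM [1.86 to 6.66]. The other leukocyte gates held 7 UMIs over 1850 cells, or 0.370 CPM, a ratio of 10.1 [3.57 to 30.6]. Of the 9 *Chl1*-positive dendritic cells 1 held a *Dcn* UMI, and 17.8% of all cells of this gate did. The *Cd209a* level was 2.35% of the stromal level, and in WT this gate held 1 UMI over 179 cells. Erythroid cells of TNF-Tg held 0 UMIs in 51 cells, which allows up to 5.95 CPM. Endothelial and Schwann cells, where CHL1 and its relatives could be looked for, were too few for a value, with 5 endothelial cells and 1 Schwann cell in TNF-Tg.

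The transcript was concentrated in a minority of TNF-Tg stromal cells. A *Chl1* UMI was seen in 29.7% of them [27.0 to 32.5], against 1.53% [1.05 to 2.14] of WT stromal cells, 0.972% of tdT1 and 1.24% of tdT2. Leukocytes were taken as background, although the *Cd209a* dendritic cells of TNF-Tg stood above the other leukocytes. In WT 0.0335% of leukocytes held a *Chl1* UMI, at a median of 11547 UMIs, from 1 cell of the *Cd209a* gate. In tdT1 and tdT2 0 of 195 and 0 of 175 leukocytes did, which allows up to 1.54% and 1.71%. The WT share was above that of WT leukocytes. In the tdT libraries the leukocytes were too few and too shallow, at medians of 4919 and 3962 UMIs, to show whether the stromal shares lay above background. Thinned to 3000 UMIs per cell, with 81 TNF-Tg and 173 WT cells below that depth left out, the shares were 17.2% [15 to 19.7] and 0.251% [0.0816 to 0.585], so the gap remained at a common depth. Had the UMIs been spread evenly by depth, 77.6% of TNF-Tg stromal cells would have held at least 1.

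Of the 1097 TNF-Tg stromal cells, 771 held no *Chl1* UMI, 82 held 1, 101 held 2 to 4 and 143 held 5 or more, up to 35. The last group was 13% of the cells and held 82.6% of the UMIs. The 110 richest cells held 74.1% of the UMIs, and 55 cells were enough for 50% of them. The variance of the counts was 11.8 times their mean. Among LMC-type cells 107 of 545 held 5 or more UMIs, and among VSMC-type cells 30 of 441. In WT 23 stromal cells held 1 UMI, 8 held 2 to 4, and 2 held 5 or more, the highest 7.

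**Figure D2:**
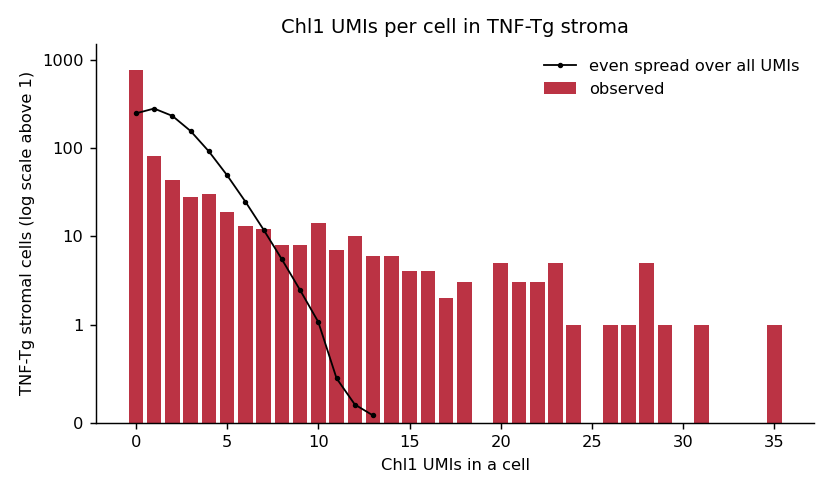
Number of TNF-Tg stromal cells (log scale above 1) by their *Chl1* UMI count, with bars for observed cells and a line for UMIs spread evenly by depth. The bars stand above the line at 0 UMIs, with 771 cells, and again at high counts, up to 35 UMIs.

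*Chl1* moved with the depth of the cell in TNF-Tg. With stromal cells ranked by depth into 4 equal groups, the level from the shallowest to the deepest was 30.5, 56.9, 86.1 and 277 CPM, and 8.03%, 16.4%, 29.9% and 64.4% of their cells held a UMI. In WT the same groups stood at 1.80, 0.753, 0.792 and 2.94 CPM. Since CPM already divides by depth, the TNF-Tg rise was more than proportional to depth. The part of depth in the other values was not tested beyond thinning. With the deepest 5% of each library removed, TNF-Tg stood at 110 CPM and its level over WT at 6.19 on the log2 scale.

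Along the score that separates the stromal classes, *Chl1* peaked in a narrow range in TNF-Tg. It stood at 82.4 to 109 CPM in every bin below a score of 1, where *Cxcl14*, *Mgp* and *Gdf10* lead or the lists balance. It rose to 361 CPM [333 to 389] between 1 and 2, where 62.3% of the cells held a UMI and 46 cells held 5 or more, and stood at 269 CPM between 2 and 3. It was 92.0 CPM between 3 and 4 and 9.23 CPM [4.22 to 17.5] at 4 or more, where 97 cells held 9 UMIs. The bin with the highest score thus had the lowest *Chl1* level. In WT the highest bin was the same, 6.11 CPM from 15 UMIs between 1 and 2, with an interval that overlapped those of several other bins, and the bin at 4 or more stood at 0.178 CPM. The score correlated with *Chl1* over TNF-Tg cells at r of only 0.05, since the relation was not a straight line. The TNF-Tg bins from 1 to 2 and from 2 to 3 were also the deepest, at medians of 15504.5 and 13824 UMIs. The other TNF-Tg bins had medians of 8244 to 12206 UMIs. *Myoc*, a marker of the score, was itself lower in *Chl1*-rich cells, as given further on. The parts of depth and of *Myoc* in the peak were not tested. Within 0.5 of the midpoint, where the classes are not separated, lay 111 TNF-Tg and 171 WT cells.

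**Figure D3:**
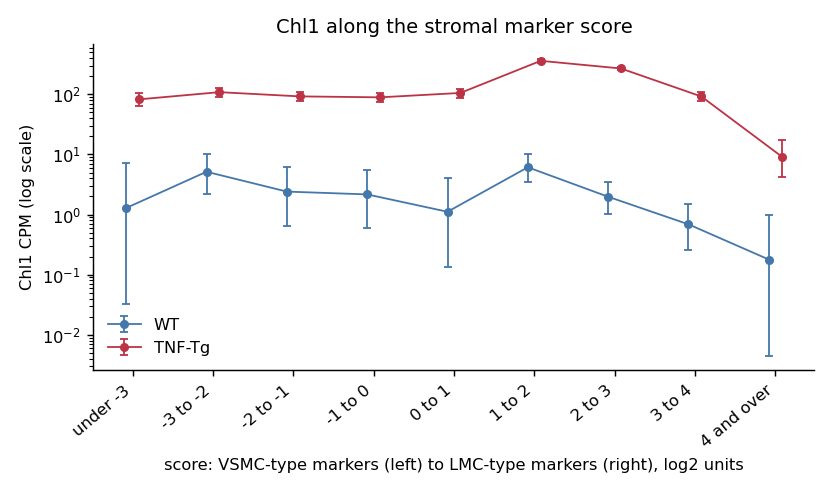
*Chl1* level in CPM along the LMC-type minus VSMC-type score, in bins of 1, with 95% Poisson intervals. The TNF-Tg line reaches 361 CPM between scores 1 and 2 and falls to 9.23 CPM at 4 or more.

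The genes whose counts varied most with *Chl1* from cell to cell of the TNF-Tg stroma were *Slc39a14* and the metallothionein genes *Mt2* and *Mt1*. Pearson's r was taken on log2(UMIs per 10000 + 1) over the 1097 cells for 9482 genes seen in at least 5% of them, and it is a description, because the cells share a library and *Chl1* tracks depth. The median r was 0.04, and 66 genes, 0.696%, lay above 0.3. Above 0.2 lay 3.59% of the genes. *Slc39a14*, the zinc and iron importer ZIP14, reached 0.63. *Mt2* and *Mt1*, whose products bind zinc, followed at 0.56 and 0.52. *Sdc4* reached 0.50, and *Pdpn*, which encodes the mucin-like glycoprotein podoplanin, 0.49. *Il33*, the alarmin interleukin-33, reached 0.49 and *Ptx3*, the long pentraxin 3 that opsonises microbes, 0.48. *Gda*, guanine deaminase, stood at 0.47, *Mcoln2*, a lysosomal cation channel, at 0.46, and *Dram1*, a lysosomal regulator of autophagy, at 0.45. Thinning left out cells below the target depth. Over the 667 cells thinned to 10000 UMIs the r of these 10 genes ran from 0.37 for *Dram1* to 0.62 for *Mt2*. Over the 1016 cells thinned to 3000 UMIs it ran from 0.22 for *Dram1* to 0.45 for *Mt2*.

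Within each class the r of these genes was positive. In LMC-type cells the r of the 10 genes ran from 0.51 for *Dram1* to 0.75 for *Slc39a14*. In VSMC-type cells it ran from 0.21 for *Mcoln2* to 0.43 for *Il33*, where *Mcoln2*, *Ptx3* and *Mt1* ranked only 137, 28 and 19 among all genes. The lowest r over all TNF-Tg stromal cells were −0.44 for *Itm2b*, a membrane protein, −0.41 for *Gsn*, the actin-severing gelsolin, −0.38 for *Dpep1*, a dipeptidase, −0.37 for *Igfbp6*, a binding protein for insulin-like growth factors, and −0.34 for *Txnip*, which binds thioredoxin. In LMC-type cells *Itm2b* reached −0.67.

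Summed levels in the deeper cells showed the size of these relations, without matching depth between the classes. Among the 667 TNF-Tg stromal cells with at least 10000 UMIs, 388 held no *Chl1* UMI, 205 held under 5 per 10000 and 74 held 5 or more per 10000. From the first to the last of these classes *Slc39a14* stood at 34.8, 157 and 406 CPM, against 23.3 CPM in WT stromal cells with the same minimum. *Mt2* stood at 1159, 4171 and 7352 CPM, against 550 in WT. *Il33* stood at 145, 458 and 781 CPM, against 31.8 in WT. *Slc39a14* in *Chl1*-free TNF-Tg cells was thus nearer to WT than to the *Chl1*-rich cells, and the same held for *Mt2*, *Il33* and *Ptx3* (54.9, 216 and 463 CPM, with 12.6 in WT). *Pdpn* stood at 205, 413 and 675 CPM with 153 in WT.

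**Figure D4:**
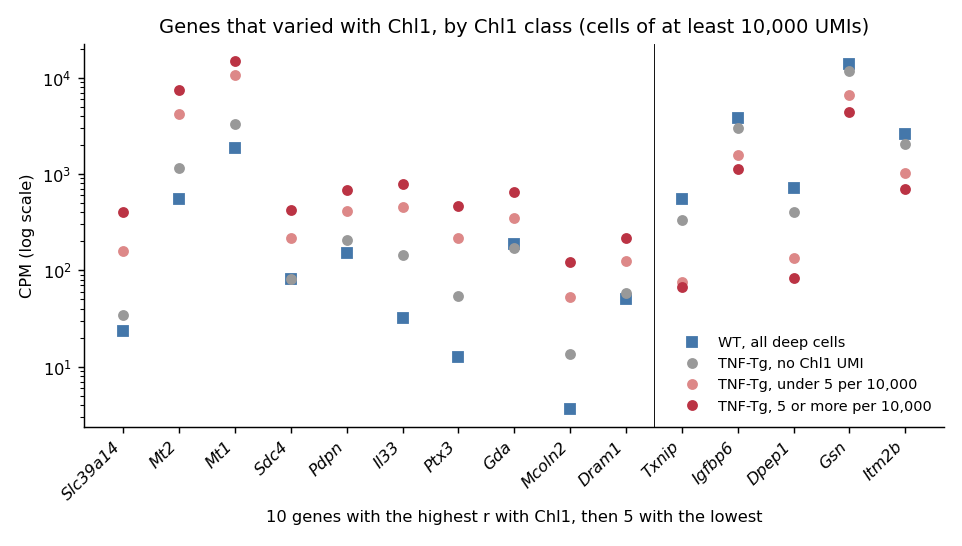
Level in CPM, on a log axis, of the 10 genes with the highest and the 5 with the lowest r with *Chl1*, in TNF-Tg stromal cells of at least 10000 UMIs by *Chl1* class (circles) and in WT stromal cells of that depth (squares). *Slc39a14* climbs from 34.8 to 406 CPM from the *Chl1*-free to the *Chl1*-rich class, and *Itm2b* goes from 2027 to 705 CPM.

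The 74 *Chl1*-rich cells were mostly LMC-type, 64 against 9 VSMC-type and 1 between, and their median score was 2.06. In the order none, low and rich, *Myoc*, which encodes myocilin, stood at 908, 139 and 133 CPM, and *Pi16*, a peptidase inhibitor of adventitial fibroblasts, at 937, 751 and 1705 CPM. *Fndc1*, the remaining LMC-type marker, stood at 583, 211 and 329 CPM, so the rich class was highest in *Pi16* and below the *Chl1*-free class in *Myoc* and *Fndc1*. *Dpep1* fell from 408 through 133 to 83.4 CPM and *Gsn* from 11665 through 6659 to 4355 CPM. *Dcn* stood at 14561, 10030 and 9630 CPM. The acute-phase gene *Saa3* stood at 28.3, 442 and 827 CPM and was seen in 28.4% of the rich cells, while the monocyte chemokine gene *Ccl2* stood at 63.4, 266 and 232 CPM and *Il6* at 8.33, 27.9 and 51.1 CPM. The median depth of the classes was 13113.5, 17068 and 19968 UMIs. Summed CPM of 3 transcripts of other cells or of handling was lower in the rich class than in the *Chl1*-free one. The haemoglobin gene *Hbb-bs* stood at 547, 6.65 and 11 CPM. The myeloid lysozyme gene *Lyz2* stood at 35.0, 17.6 and 18.8 CPM and the dissociation gene *Fos* at 1067, 809 and 594 CPM. The shares of cells with a UMI were instead highest in the rich class, which was also the deepest. They were 10.3%, 10.7% and 20.3% for *Hbb-bs*, 25%, 23.9% and 31.1% for *Lyz2*, and 83.0%, 84.9% and 86.5% for *Fos*. Over all TNF-Tg stromal cells the r of the 12 dissociation genes with *Chl1* ran from −0.13 for *Fosb* to 0.22 for *Ier3*, with a median of 0.01.

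Among these genes r was lower in the controls. The median r among pairs of the 10 genes was 0.41 over TNF-Tg stromal cells, 0.045 over WT, 0.064 over tdT1 and 0.054 over tdT2. The genes were chosen on TNF-Tg cells, which favours a higher r there. The median r of the 10 genes with *Chl1* itself was 0.018 in WT. Only 33 of 2163 WT stromal cells held a *Chl1* UMI, and *Mcoln2* and *Ptx3* stood at 3.44 and 11.8 CPM in WT. With so few counts, the WT r cannot show whether *Chl1* and these genes vary together there. The 33 WT stromal cells with a *Chl1* UMI stood at 30.1 CPM of *Slc39a14* and 443 CPM of *Mt2*, against 23.1 and 548 CPM in the WT cells without one. They held 0 UMIs of *Saa3*. Their median depth was 20713 UMIs against 14442.5.

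Set among all genes, *Chl1* had one of the largest ratios of TNF-Tg to WT stroma. Among 11778 genes with at least 50 UMIs over both sums it ranked 2. *Saa3* ranked 1 at 125-fold, and the genes next below *Chl1* were *Gm49257* (59.2-fold), *Cemip*, which takes part in hyaluronan breakdown and was at 0 UMIs in WT (at least 58.1-fold against a floor of 3 UMIs), and *Gzma*, the granzyme of cytotoxic lymphocytes (41.9-fold). *Hbb-bs* (40.5-fold), the orphan receptor gene *Gpr176* (39.3-fold), *Gm26737* (32.8-fold), *Hba-a1* (27.6-fold), *Saa1* (22.0-fold) and the transglutaminase gene *Tgm1* (19.6-fold) came next. Several of these ratios moved with the cells used. In cells with no UMI of any general leukocyte gene *Saa3* stood at 5.41 on the log2 scale and *Chl1* at 8.41 [6.55 to 11.46], so their order turned. The *Chl1* ratio there rests on 2 UMIs in 493 WT cells. The lower bound of *Cemip* was 2.67 there, and *Gm26737* fell to 1.02 without the deepest 5% of cells. *Hba-a1* ranged from 3.31 to 6.57 over all alternatives. *Chl1* and *Saa3* stood apart in count too, with 2132 and 3135 UMIs in TNF-Tg, where the other non-globin genes of these ranks had 52 to 183.

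Of the other L1 family genes, *Nrcam* and *Nfasc* did not share the pattern, and *L1cam* had too few UMIs to tell. *Nrcam* was lower in TNF-Tg stroma, at 7.27 CPM against 19.5 in WT, 18.6 in tdT1 and 12.7 in tdT2 (−1.43 on the log2 scale over WT). *Nfasc*, which encodes neurofascin, was at 3.27 CPM from 44 UMIs, against 0.524 in WT from 16 UMIs, 1.72 in tdT1 and 3.74 in tdT2, so its TNF-Tg value lay inside the control range although its log2 ratio to WT was 2.64. *L1cam* had 7 UMIs in TNF-Tg (0.520 CPM) and 4 in WT (0.131 CPM), with 0.181 and 0 CPM in tdT1 and tdT2. Its log2 ratio to WT was 1.99 [0.01 to 4.21], in the direction of *Chl1* but from few UMIs. Of all 11778 genes compared, 4.07% were at least 2-fold higher and 6.31% at least 2-fold lower in TNF-Tg (479 and 743 genes, or 608 and 575 with median-ratio scaling), and the median log2 ratio was −0.10.

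Among 19 genes whose products bind, anchor or cut CHL1 or signal through neuropilin-1, 16 could be compared, with a median log2 ratio of −0.34. Of these 0 were 2-fold higher and 1 was 2-fold lower, *Sema3a* at 2.52 CPM against 6.13 in WT. *Sema3a* stood at 6.52 CPM in tdT1. In tdT2 it had 0 UMIs, which allows up to 2.24 CPM, so its TNF-Tg value lay inside the control range. The counts of 0 higher and 1 lower gene are near the shares of all genes past 2-fold. The highest ratio was that of *Vtn*, the matrix ligand vitronectin, at 26.9 CPM against 15 in WT (0.84 on the log2 scale), with 36.6 and 50.1 CPM in tdT1 and tdT2. The neuropilin-1 gene *Nrp1* stood at 72.7 CPM against 106 in WT. The integrin chain gene *Itgb1* stood at 271 against 313 CPM and the sheddase gene *Bace1* at 21.5 against 30.1 CPM. These co-receptor and protease transcripts were thus present in TNF-Tg stroma beside *Chl1*. Over its cells, 0 of the 14 partner genes with a value had an r with *Chl1* over 0.2, against 3.59% of all genes, and their median r was 0.05, near the 0.04 of all genes. Of 28 other neural adhesion genes of the immunoglobulin type 14 could be compared, with 0 higher and 3 lower, *Alcam* (−1.53), *Lsamp* (−1.26) and *Thy1* (−1.11 on the log2 scale), and a median of −0.67. Of all genes compared, 4.07% were higher and 6.31% lower by that measure. *Alcam* stood at −0.29 in LMC-type and −3.18 in VSMC-type cells, *Lsamp* at −1.89 and −0.49, and *Thy1* at −1.78 and 1.29, in opposite directions. The ratios of all gene lists here are over the whole stromal gate. It held 1493 LMC-type and 499 VSMC-type cells in WT and 545 and 441 in TNF-Tg. Class make-up and level are therefore not separated in these ratios.

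*Chl1* was chosen for its high TNF-Tg level, so how its ratio compares in size with others is not a result. Adhesion genes known from inflamed vessels are given beside it. Of 8 genes 3 could be compared and 2 were 2-fold higher, *Vcam1* at 26.7 CPM against 9.15 in WT (log2 1.55) and *Icam1* at 41.2 against 16.8 CPM (1.30), both ligands of leukocyte integrins. For both, the tdT libraries lay nearer to TNF-Tg, at 18.4 and 21.0 CPM of *Vcam1* and 62.4 and 41.9 CPM of *Icam1*, whereas for *Chl1* they lay with WT. Within LMC-type and VSMC-type cells the log2 ratios to WT were 1.12 and 0.97 for *Vcam1* and 1.45 and 0.70 for *Icam1*. Of 4 cadherins compared among 10, *Cdh11*, the cadherin of mesenchymal cells, was higher (1.24) with its tdT values of 13 and 24.7 CPM above the TNF-Tg level of 12.8. *Cdh2*, *Cdh4* and *Cdh13* were lower (−1.27, −3.28 and −1.13 on the log2 scale). *Cdh2* and *Cdh4* rest on 11 and 3 UMIs in TNF-Tg, and *Cdh4* had 0 UMIs in tdT2. *Cdh13* stood at 66.8 CPM in TNF-Tg, 146 in WT, and 122 and 41.2 in tdT1 and tdT2. Its TNF-Tg value thus lay inside the control range. Of all genes compared, 4.07% were 2-fold higher and 6.31% 2-fold lower. Lists with 3 and 4 genes compared are too short to set against these shares.

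Of 24 genes of the TNF and NF-kB response 23 could be compared, 11 were 2-fold higher and 1, *Cxcl2*, was lower, with a median log2 ratio of 0.88. The higher genes were *Saa3* (6.96), *Ccl7* (3.45), *Ccl19* (3.42), *Timp1* (3.24), *Il6* (2.89), *Ccl2* (2.60), *Mmp3* (2.19), *Nfkbie* (2.11), *Sod2* (1.87), *Cxcl12* (1.71) and *Cxcl1* (1.17 on the log2 scale), of which the study picked *Mmp3*, *Timp1*, *Cxcl12* and *Ccl19* from these same libraries. Of all genes compared, 4.07% were at least 2-fold higher and 6.31% at least 2-fold lower. The list was drawn up with earlier results of these data known, so its counts are a description. In tdT1, where dissociation genes were high, *Ccl2* at 312 CPM, *Il6* at 119 CPM and *Cxcl1* at 590 CPM stood above their TNF-Tg levels, and *Chl1* did not. Over TNF-Tg stromal cells 9 of the 21 genes of this list with a value had an r with *Chl1* over 0.2, where 3.59% of all genes did, the highest *Sod2*, mitochondrial superoxide dismutase, at 0.43 and *Ccl7* at 0.38. Of the 12 dissociation genes 1 was higher, *Ier3* (1.49), and the median was −0.33.

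**Figure D5:**
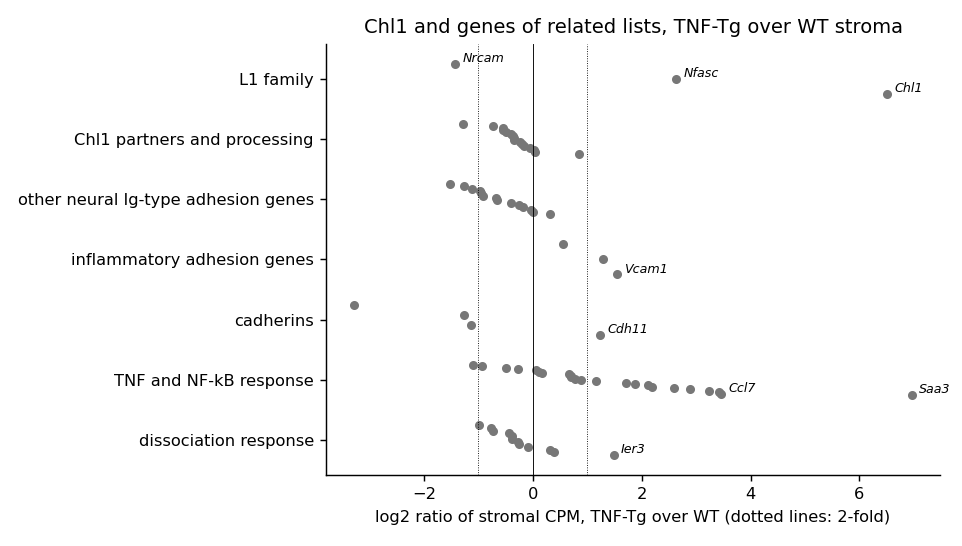
Log2 ratio of TNF-Tg over WT stromal CPM for the genes of each list with at least 50 UMIs, 1 point per gene, with dotted lines at 2-fold. *Chl1*, chosen for its high level in TNF-Tg, stands at 6.51 and *Saa3* at 6.96.

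Markers of other cells in the TNF-Tg stromal gate were checked as lists beside *Chl1*. The general leukocyte genes summed to 152 CPM in TNF-Tg and 192 in WT, both above tdT1 at 30.1 and tdT2 at 14.96 CPM. Their members ran in opposite directions. Of 7 compared, 1 was 2-fold higher in TNF-Tg, *Srgn* at 38.6 CPM against 16.7 in WT. The 2 that were 2-fold lower were *Cd74*, at 25.8 against 71.7 CPM, and *Lyz2*, at 29.5 against 59.2 CPM. The Schwann cell and nerve genes summed to 16.2 CPM in TNF-Tg and 21.6 in WT, below the tdT libraries at 44.0 and 98.0. *Sox10* and *Gfap* were at 0 in every library. Of the members with enough UMIs to compare, *Mbp* stood at 8.39 CPM against 14.7 in WT. *S100b* went the other way, at 5.27 against 4.59 CPM. Erythroid genes summed to 327 CPM in TNF-Tg against 10.5 in WT, 76.6 in tdT1 and 26.9 in tdT2. Among deep cells the summed *Hbb-bs* level was lower in those with *Chl1*, as given above. The share of cells with an *Hbb-bs* UMI was instead highest in the *Chl1*-rich class, at 20.3% against 10.3% in the *Chl1*-free class. With cells that held a UMI of any general leukocyte gene removed, TNF-Tg stood at 118 CPM (606 UMIs in 475 cells) and WT at 0.346 CPM (2 UMIs in 493 cells), a log2 ratio of 8.41 [6.55 to 11.46].

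Across 43 sums of gate and library with at least 20 cells, the 10 genes of 13714 whose log2(CPM + 1) was most like that of *Chl1* were *Steap1* and *Serpina3i* (r of 0.93 each), *Bhlhe22* (0.88), *Eef1akmt3* (0.85), *Ddah1*, *Cthrc1*, *Serpina3m* and *Saa1* (0.82 each), and *Tubb3* and *Gm36107* (0.80 each). *Steap1* encodes a membrane protein of the metalloreductase family, *Cthrc1* a secreted protein of activated fibroblasts, and *Serpina3i* and *Serpina3m* belong to a cluster of near-identical protease inhibitor genes whose reads may be shared. In LMC-type cells log2(CPM + 1) was 7.73 in TNF-Tg and 1.31 in WT for *Chl1*, and 4.30 and 1.47 for *Steap1*. It was only 1.45 and 1.23 for *Eef1akmt3* and 1.52 and 1.04 for *Gm36107*. A high r here thus does not mean a difference between TNF-Tg and WT of like size. Many sums outside the stromal gates were at 0 for these genes. The sums share libraries and differ in depth, so these values describe likeness over these sums only.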

How the data were processed

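The authors aligned and counted the reads with Cell Ranger (3.1.0 in the matrix header of tdT1, 6.0.1 in the others) against mm10 per the submitters' processing notes, and deposited raw UMI counts per gene and cell. The annotation used is not given in the sources used here, and they also list Seurat 4.0.3. Here counts were summed over cells of a gate and scaled to CPM by the total UMIs of the gate with Python 3.11.15, numpy 2.4.6, scipy 1.17.1, pandas 2.3.3 and matplotlib 3.10.9. Intervals were exact Poisson for CPM, Clopper-Pearson for shares and exact conditional binomial for ratios of counts, and cover counting error only. A count of 0 was bounded by 3 UMIs.

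Stromal cells were cut at a score of ±0.5 into LMC-type and VSMC-type. Cells outside the gate took the marker list with the highest mean level, given at least 2 of its markers. No cell was clustered and no doublet caller was run. The *Ptprc* gate leaves out stromal cells with a UMI of that leukocyte gene, but not doublets without one, such as pairs of stromal cells. The deepest 5% were left out only as an alternative, so the main values may hold doublets, and their part was not tested. Thinning drew UMIs without replacement (seed 42) and left out cells below the target depth. A gene was called at a 2-fold difference with at least 50 UMIs over both sums, without a test. The scripts were tested on simulated data.

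*Chl1*, the gene lists and the gates were chosen with earlier results of these data known. Named genes were all members of the L1 family, list members past 2-fold, the 10 highest and 5 lowest r over cells, the 10 most alike over gates and the 10 with the highest ratios beside *Chl1*. Partner genes, class genes and genes quoted as cell markers were named after their values were seen. Each library held 454 to 5488 cells. The authors' expression values and cell clusters were not used. The marker genes of the stromal score, and the mention of genes the study picked, do come from the authors' work.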

Additional observations from a re-analysis of the deposited data

How the results depend on the processing

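*Chl1* was higher in TNF-Tg than in WT stroma under each alternative, with log2 ratios from 6.14 to 8.41, and no result reversed. Without tdT replicate 1 or 2 the log2 ratio over the tdT libraries was 6.14 or 7.19. In cells with no UMI of any general leukocyte gene, that over WT was 8.41 in all stromal cells and 8.43 in LMC-type cells, the shares with a UMI 0.406% (WT) and 21.7% (TNF-Tg), LMC-type over VSMC-type 1.42, genes 2-fold higher and lower 314 and 477, and the UMIs held by the richest 10% of cells 81.8%. Without the deepest 5% of cells the TNF-Tg share was 25.8%, LMC-type over VSMC-type 0.72, genes with r over 0.3 31, and the UMIs of the richest 10% 76.4%. LMC-type over VSMC-type was 0.87 with median-ratio scaling and 1.34 with the longer marker lists, so its size depended on the setting, from 0.72 to 1.42, and its direction did not. Thinning to 3000 UMIs gave shares of 0.251% and 17.2%, 10 genes with r over 0.3 and 77.7% of UMIs in the richest 10%. Thinning to 1500 UMIs gave 0.292% and 10.5%. Thinning to 10000 UMIs, chosen after seeing the data, gave 57.1% of UMIs in the richest 10%. A 3-fold threshold left 153 higher and 198 lower genes, and a minimum of 200 UMIs 293 and 474. In LMC-type cells alone 189 genes passed r of 0.3, and in VSMC-type cells alone 10. The causes were not tested, beyond fewer cells, UMIs or genes where an alternative leaves some out. In the remaining 83 values the move was smaller than the interval or the 1.5-fold range. For single named genes, 284 log2 ratios kept within their interval and 106 moved further. For r the rule was a set absolute distance from the main r, within which 113 values kept and past which 37 moved. Of all these 0 had a reversed sign. *Gzma* and *Gm26737* could not be compared in cells without leukocyte genes. No paired analysis was possible because WT and TNF-Tg had 1 library each and the tdT libraries form a single group. With 1 library per genotype, the depth limits only the counting error, and the spread between mice is unknown.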
